A study of Mus musculus with 12 samples.

Results

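Rgs5, Abcc9 and Cdh5 are genes of the cells that build small blood vessels, pericytes in the case of Rgs5 and Abcc9 and endothelial cells in the case of Cdh5. They were taken by name from the authors' deposited table of astrocytes against non-astrocytes, with every probe set listed under each name. They are 3 of 4575 genes measured under a name. This gave 4 probe sets, 2 for Rgs5 and 1 each for Abcc9 and Cdh5, of 28467 probe sets tested, of which 5116 carried a gene name. That table holds entries with an adjusted p-value up to 0.15 in its own comparison, so a difference between the sorted populations was a condition for being listed.

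RNA from spinal cord of mice at postnatal day 7 was measured on 12 arrays. All mice carried the Aldh1l1-GFP transgene, in which the Aldh1l1 promoter drives green fluorescent protein, on a Swiss-Webster background, and no group came from mice without it. Cords were divided into a dorsal and a ventral part, dissociated with papain and flow sorted. Each part gave 2 populations, GFP-positive cells, the dorsal and ventral astrocytes, and GFP-negative cells, the dorsal and ventral non-astrocytes. The 4 groups held 3 biological replicates each. Non-astrocytes are all cells without GFP, so vessel cells make up an unknown share of them, and fewer cells of a type and less RNA per cell cannot be told apart. The labels do not say whether a replicate is 1 animal or a pool.

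Pericytes are mural cells that wrap the endothelial tube of capillaries and share its basement membrane. Rgs5 encodes a regulator of G protein signalling that shortens signals through heterotrimeric G proteins and is widely used as a pericyte marker in the central nervous system. Abcc9 encodes the sulfonylurea receptor SUR2, which joins the pore subunit Kir6.1, encoded by Kcnj8, in the ATP-sensitive potassium channel of mural cells. Cdh5 encodes VE-cadherin, the cadherin of endothelial adherens junctions, which holds neighbouring endothelial cells together. In the spinal cord, as in the brain, astrocyte endfeet cover these vessels.

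Upstream sequences are shown for Rgs5 and Abcc9 because both genes are assigned to the same cell type, for Abcc9 only as a short stretch. They come from RefSeq, build GRCm38.p6, and run 5′ to 3′ on the strand of the gene. The match to CAGGAA, the core of many sites bound by ETS factors, stands in capitals, and in the second sequence the match is on the opposite strand.
Rgs5, chr1:169655251-169655500, plus strand: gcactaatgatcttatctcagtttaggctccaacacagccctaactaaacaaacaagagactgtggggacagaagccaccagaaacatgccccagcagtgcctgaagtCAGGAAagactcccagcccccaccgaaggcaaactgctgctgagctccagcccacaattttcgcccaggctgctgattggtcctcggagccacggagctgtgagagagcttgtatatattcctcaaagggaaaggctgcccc
Abcc9, chr6:142702359-142702388, minus strand: ggtgcctgcagtTTCCTGccagggcgcggc

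The Rgs5 stretch is the 250 bases before the gene start, and the Abcc9 stretch is 30 bases around its match. The 7 motifs searched, on both strands and without overlap between those found, were the TATA box as TATAAA, the E-box as CANNTG, the ETS core as CAGGAA, the RBPJ site as TGGGAA, the GC box as GGGCGG, and the sites named MEF2 and SRF. The Rgs5 window held 1 of them, the ETS core, starting at position -142 from the gene start. The Abcc9 window, which does not begin at the outermost start of the gene, held the ETS core, the RBPJ site and the GC box at 1 place each, and the E-box, which reads alike on both strands. The ETS core is found in 25.7% of all 32851 windows, the RBPJ site in 21.6%, the GC box in 32.7% and the E-box in 66.2%. These matches are a description of the letters and not evidence of binding. No promoter was printed for Cdh5. Abcc9 and Kcnj8, whose products form 1 channel, lie next to each other on chromosome 6, with 0 genes starting between them.

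The array medians lay between 6.57 and 6.62 on the log2 scale, and the first principal component, with 69.5% of the variance, set the arrays of the 2 sorts apart. All 20 probe sets of the astrocyte list were higher in astrocytes. The list averaged 10.33 to 10.56 on the log2 scale across astrocyte arrays and 6.55 to 6.97 across non-astrocyte arrays, and the sort labels fit these values.

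The lowest non-astrocyte array was the same for all 3 genes. The array of dorsal non-astrocytes 1 was the lowest of the 6 non-astrocyte arrays in all 4 probe sets of Rgs5, Abcc9 and Cdh5, while it was the lowest in 15.7% of all probe sets tested and in 18% of the named ones. Its log2 signal was below the mean of the other 5 arrays by a difference of -1.81 and -1.70 for Rgs5, -1.03 for Abcc9 and -1.15 for Cdh5. Its median over all probe sets, 6.62, was within the range of the others. The gap to the next array, as a share of the range of the 6, was 0.603 and 0.536 for Rgs5, 0.365 for Abcc9 and 0.512 for Cdh5, each under Dixon's 95% critical value for 6 arrays. The differences between groups that include this array are given below with and without it.

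The pericyte gene Rgs5 was the member furthest apart between the sorts. Its brighter probe set had log2 signals of 6.78, 7.12 and 8.13 in dorsal astrocytes and 7.58, 8.48 and 8.24 in ventral astrocytes, against 9.35, 11.40 and 11.02 in dorsal non-astrocytes and 10.75, 10.98 and 11.67 in ventral non-astrocytes. All 6 astrocyte values were below all 6 non-astrocyte values, a separation in this direction found for 12% of all probe sets tested. Since Rgs5 was listed on a difference between the sorts, the separation is a description and not a test. The dimmer probe set had 6.26, 6.51 and 7.29 in dorsal astrocytes and 7.04, 7.52 and 7.47 in ventral astrocytes, against 8.27, 10.30 and 9.74 in dorsal non-astrocytes and 9.52, 9.70 and 10.60 in ventral non-astrocytes. It too was without overlap between the sorts, and on both probe sets dorsal non-astrocytes 1 was the nearest to the astrocytes.

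By group, the brighter Rgs5 probe set averaged 7.35 ± 0.70 in dorsal and 8.10 ± 0.46 in ventral astrocytes, against 10.59 ± 1.09 in dorsal and 11.13 ± 0.48 in ventral non-astrocytes (log2, SD, n = 3 each). Both astrocyte groups were thus below both non-astrocyte groups, and within each sort the dorsal mean was below the ventral one. The dimmer probe set had the same order. Neighbours in this order that share a sort overlapped, and the step between the sorts did not. Within astrocytes the brighter probe set still ranked above 54.8% to 83.6% of the probe sets of its array, and in non-astrocytes above 91.4% to 99.3%.

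Abcc9, the channel subunit gene, was low in all astrocytes and variable outside them. Its log2 signals were 6.21, 6.24 and 6.36 in dorsal astrocytes and 6.40, 5.98 and 6.22 in ventral astrocytes, against 6.44, 7.90 and 7.20 in dorsal non-astrocytes and 7.24, 7.01 and 7.99 in ventral non-astrocytes. The sorts did not overlap, as in 12% of all probe sets tested in this direction, but dorsal non-astrocytes 1 was only 0.04 above the highest astrocyte array. Abcc9 was listed on a difference between the sorts, so this is a description and not a test. The gene averaged 6.27 ± 0.08 in dorsal and 6.20 ± 0.21 in ventral astrocytes, against 7.18 ± 0.73 in dorsal and 7.41 ± 0.52 in ventral non-astrocytes (log2, SD, n = 3 each).

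Cdh5, the junction gene of endothelium, had the same layout. Its log2 signals were 6.30, 6.05 and 6.32 in dorsal astrocytes and 6.27, 6.20 and 6.21 in ventral astrocytes, against 6.32, 7.97 and 7.16 in dorsal non-astrocytes and 7.33, 7.24 and 7.64 in ventral non-astrocytes. The sorts overlapped by a single array, since dorsal non-astrocytes 1 differed by -0.01 from the highest dorsal astrocyte array, and the other 5 non-astrocyte arrays were above every astrocyte array. The gene averaged 6.22 ± 0.15 in dorsal and 6.23 ± 0.04 in ventral astrocytes, against 7.15 ± 0.83 in dorsal and 7.40 ± 0.21 in ventral non-astrocytes (log2, SD, n = 3 each). In astrocytes, Abcc9 ranked above 35.3% to 44.2% of the probe sets of its array and Cdh5 above 37.0% to 43.3%. Both were thus under the array median, where no detection call was used here and the size of a change is less certain.

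**Figure D1:**
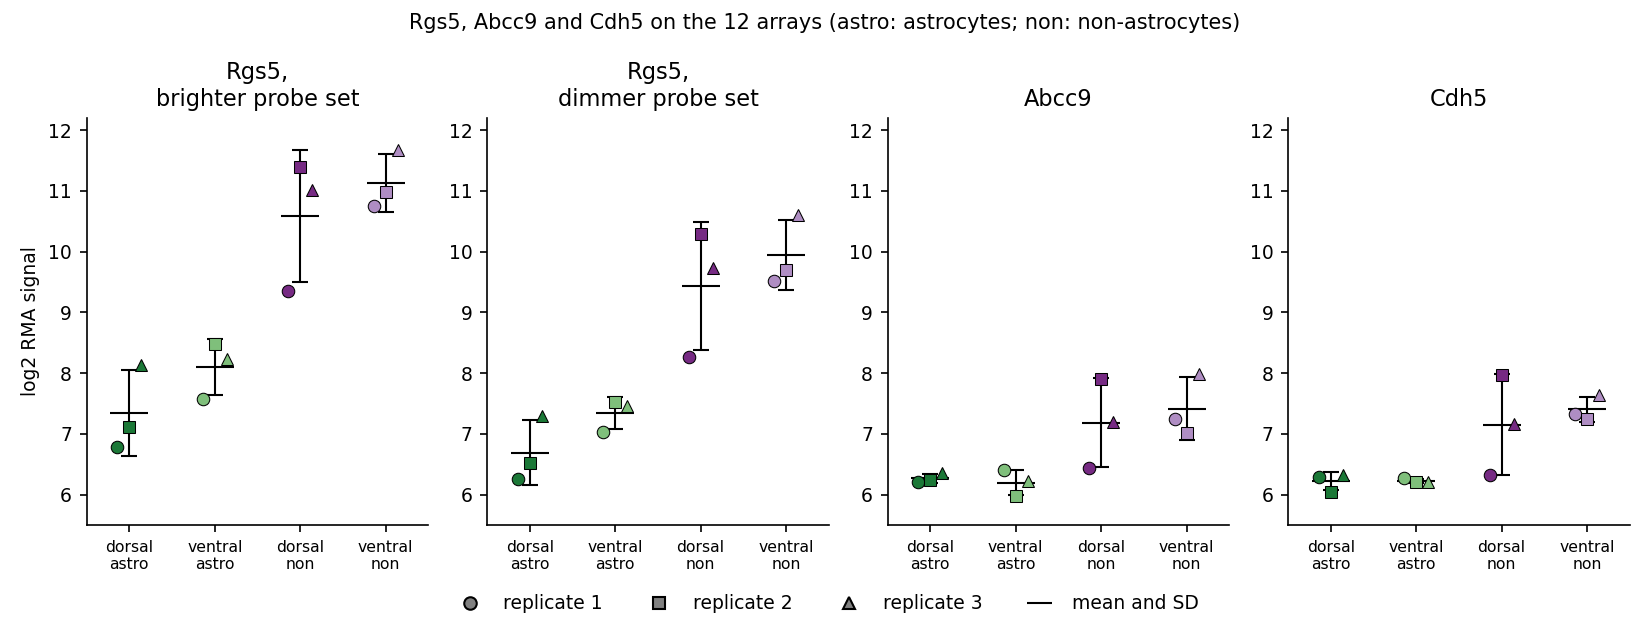
Log2 signal (vertical axis) of the 4 probe sets of Rgs5, Abcc9 and Cdh5 in the 4 groups (horizontal axis), with 1 point per array, its shape giving the replicate number, and bars for the mean and SD of 3 arrays. The dorsal non-astrocyte circle, replicate 1, is the lowest non-astrocyte point in each panel and reaches the astrocyte level for Abcc9 (6.44) and Cdh5 (6.32).

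In astrocytes against non-astrocytes, all 4 probe sets were lower in astrocytes. The brighter Rgs5 probe set averaged 7.72 ± 0.67 in astrocytes, against 10.86 ± 0.81 in non-astrocytes (log2, SD, n = 6 each), a log2 difference of -3.14 (SE 0.34, limma adjusted p = 7.88e-06), or 8.81-fold lower with a 95% interval of 5.30 to 14.7. The dimmer one averaged 7.01 ± 0.52 in astrocytes and 9.69 ± 0.80 in non-astrocytes, 6.38-fold lower (log2 difference -2.67, SE 0.31, limma adjusted p = 1.57e-05). Abcc9 averaged 6.23 ± 0.15 in astrocytes, against 7.297 ± 0.58 in non-astrocytes (SD, n = 6 each), 2.09-fold lower with a 95% interval of 1.51 to 2.90 (log2 difference -1.06, SE 0.22, limma adjusted p = 0.00168). Cdh5 averaged 6.22 ± 0.10 in astrocytes and 7.28 ± 0.56 in non-astrocytes, 2.07-fold lower (log2 difference -1.05, SE 0.21, limma adjusted p = 0.00118).

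That all 4 passed the test says little about these genes. In limma, 36.2% of all probe sets tested passed in this comparison, 19.7% with lower signal in astrocytes, and 99.6% of the named probe sets passed, 51.9% with lower and 47.7% with higher signal in astrocytes, because the names come from the authors' table of the same comparison. The authors' deposited table gives ratios of astrocytes over non-astrocytes of 0.11 and 0.16 for Rgs5, 0.48 for Abcc9 and 0.48 for Cdh5. Without dorsal non-astrocytes 1 the log2 differences were -3.45 and -2.96 for Rgs5, -1.25 for Abcc9 and -1.26 for Cdh5, all called (limma adjusted p up to 0.000141), where 32.8% of all probe sets were.

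Within the dorsal part, the log2 differences of dorsal astrocytes against dorsal non-astrocytes were -3.24 (SE 0.48) and -2.75 (SE 0.44) for Rgs5, with limma adjusted p = 0.000227 and 0.000433. Abcc9 was lower by a log2 difference of -0.91 (SE 0.31, limma adjusted p = 0.0450) and Cdh5 by -0.93 (SE 0.29, limma adjusted p = 0.0321), both just past the threshold of 0.05. All 4 probe sets passed, where 25.8% of all probe sets passed and 13.8% did so with lower signal in astrocytes. Of the named probe sets, listed on the sort difference, 91.4% passed here, 47.1% with lower signal, so the calls say little about these genes. Without dorsal non-astrocytes 1, Rgs5 stood at -3.86 and -3.33 (limma adjusted p = 1.65e-05 and 2.2e-05), Abcc9 at -1.29 (limma adjusted p = 0.00391) and Cdh5 at -1.35 (limma adjusted p = 0.000395), with 21.1% of all probe sets called. Without dorsal non-astrocytes 2, the highest dorsal array, Abcc9 stood at -0.55 and Cdh5 at -0.52 and neither was called (limma adjusted p = 0.189 and 0.103). Rgs5 stayed called there.

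Within the ventral part, the log2 differences of ventral astrocytes against ventral non-astrocytes were -3.03 (SE 0.48) and -2.60 (SE 0.44) for Rgs5, -1.21 (SE 0.31) for Abcc9 and -1.18 (SE 0.29) for Cdh5. All 4 passed in limma, with adjusted p = 0.000384, 0.000661, 0.0103 and 0.00871, where 26% of all probe sets passed and 13.8% did so with lower signal in astrocytes. Of the named probe sets, 92.1% passed, 47.5% with lower signal, so these calls too say little about the 3 genes. The 3 astrocyte values were below the 3 non-astrocyte values for each of the 4, as in 20.3% of all probe sets. Since the genes were listed on a difference between the sorts, this separation is a description and not a test.

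**Figure D2:**
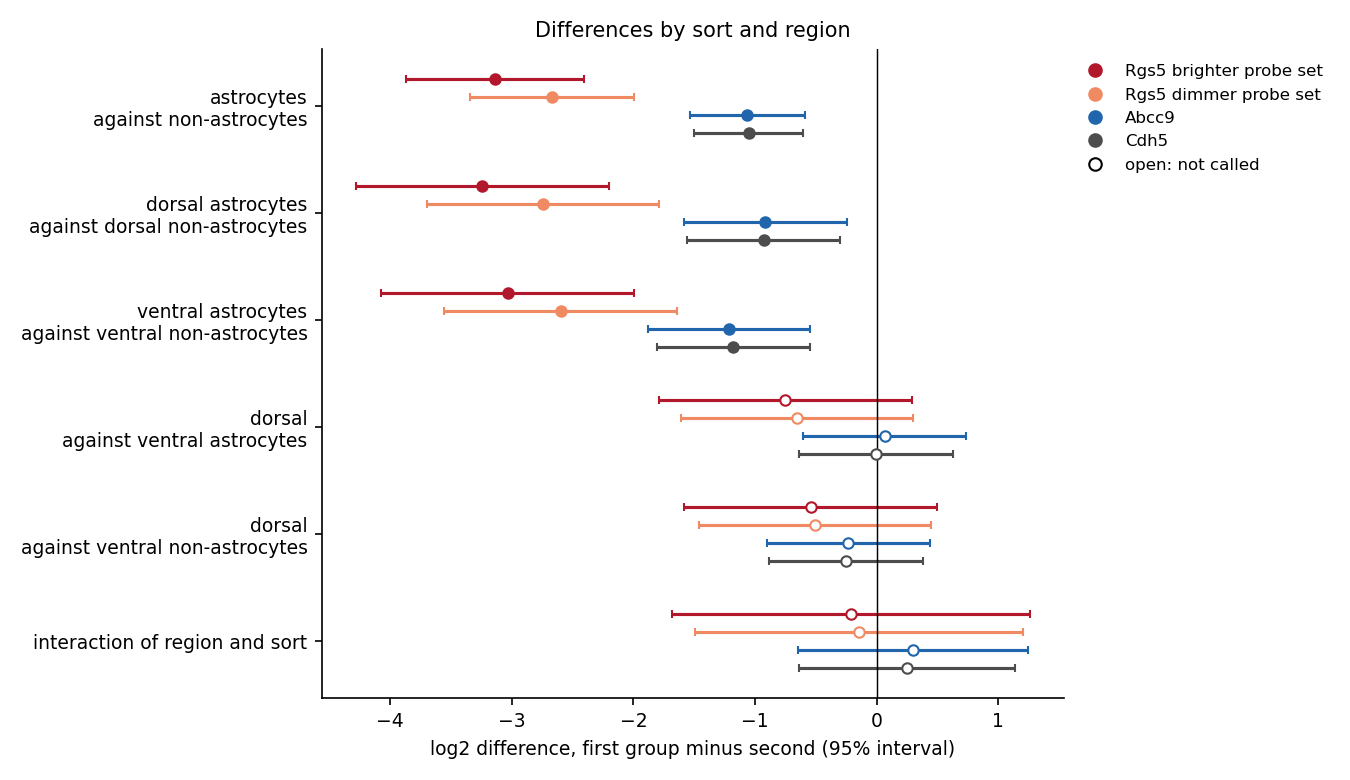
Log2 difference (horizontal axis, first group minus second) of each probe set in the 6 comparisons (rows), with the 95% interval of limma. Filled points passed an adjusted p of 0.05. The interaction is the dorsal minus the ventral sort difference. The sort comparisons lie between -3.24 and -0.91, while every interval of the regional comparisons and the interaction includes 0.

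No regional difference of these genes was called. In dorsal against ventral astrocytes, the log2 difference was -0.75 for the brighter Rgs5 probe set (95% interval -1.79 to 0.29, limma adjusted p = 0.629) and -0.65 for the dimmer one (-1.61 to 0.30, limma adjusted p = 0.649). Abcc9 stood at 0.07 (-0.60 to 0.74) and Cdh5 at -0.004 (-0.63 to 0.63). With 0 of 4 called, the background was 0.341% of all probe sets called. The intervals leave room for a regional change of Rgs5 in astrocytes of more than 2-fold.

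In dorsal against ventral non-astrocytes, the log2 differences were -0.54 (95% interval -1.58 to 0.50) and -0.50 (-1.46 to 0.45) for Rgs5, -0.23 (-0.90 to 0.44) for Abcc9 and -0.25 (-0.88 to 0.38) for Cdh5. None of the 4 was called in limma, and 0 of the 4 had an unadjusted p under 0.05. This fit held no replicate block, although dorsal and ventral non-astrocytes of the same number were taken as paired. Of all probe sets, 0.0492% were called and 5.25% had an unadjusted p under 0.05. Without dorsal non-astrocytes 1 all 4 values changed sign, to 0.08 and 0.08 for Rgs5, 0.14 for Abcc9 and 0.16 for Cdh5. None of these values was called either, with 0.0141% of all probe sets called. Abcc9 also changed sign without ventral non-astrocytes 3, to 0.06.

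The sort difference was not shown to depend on region. The interaction, the dorsal minus the ventral sort difference, was -0.21 (SE 0.68) and -0.15 (SE 0.62) for Rgs5, 0.30 (SE 0.44) for Abcc9 and 0.25 (SE 0.41) for Cdh5. The 4 adjusted p-values of limma ran between 0.932 and 0.980, and 0.0632% of all probe sets were called. The 95% interval of Rgs5, -1.68 to 1.26, is wide. Without dorsal non-astrocytes 1 the values were -0.83 and -0.73 for Rgs5, -0.07 for Abcc9 and -0.17 for Cdh5, so that Abcc9 and Cdh5 changed sign. None of the 4 was called there either (limma adjusted p between 0.893 and 0.996), where 0.0176% of all probe sets were.

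Among the non-astrocyte arrays, the 3 genes were high and low together. Over the 6 arrays, Pearson's r was 0.912 for Rgs5 with Abcc9 (exact permutation p = 0.00972, adjusted p = 0.0375 over 6 relations). Spearman's rho for this pair was 0.829 (exact permutation p = 0.0583, adjusted p = 0.175). For Rgs5 with Cdh5, r was 0.926 (exact permutation p = 0.0194, adjusted p = 0.0389) and rho was 0.714 (exact permutation p = 0.136, adjusted p = 0.272). For Abcc9 with Cdh5, r was 0.937 (exact permutation p = 0.0125, adjusted p = 0.0375) and rho was 0.886 (exact permutation p = 0.0333, adjusted p = 0.175). By rank, no pair passed after adjustment. These tests treat the 6 arrays as independent, whereas dorsal and ventral non-astrocytes of the same number were taken as paired, so the p-values may be too small. As deviations from the mean of each replicate number, a scale chosen after seeing the data, r was 0.875, 0.952 and 0.957 for the 3 pairs of genes in the same order, given without a test since it rests on 3 pairs of arrays.

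The relations stayed positive when dorsal non-astrocytes 1 was left out. Without it, r over 5 arrays was 0.895 for Rgs5 with Abcc9, 0.712 for Rgs5 with Cdh5 and 0.881 for Abcc9 with Cdh5. Without the 2 arrays farthest from the median, dorsal non-astrocytes 1 and ventral non-astrocytes 3, r over the 4 left was 0.810, 0.806 and 0.959 for the same pairs. Taken as deviations from the mean of each region, r was 0.917, 0.927 and 0.934 for the same pairs. These are given without a test, since deviations within a region depend on each other and cannot be permuted freely.

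In the 6 astrocyte arrays no such relation was found. There r was -0.306 for Rgs5 with Abcc9, 0.140 for Rgs5 with Cdh5 and 0.310 for Abcc9 with Cdh5 (exact permutation, adjusted p between 0.713 and 0.831). Abcc9 and Cdh5 spanned only 0.42 and 0.27 on the log2 scale there, against 1.56 and 1.66 in non-astrocytes.

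**Figure D3:**
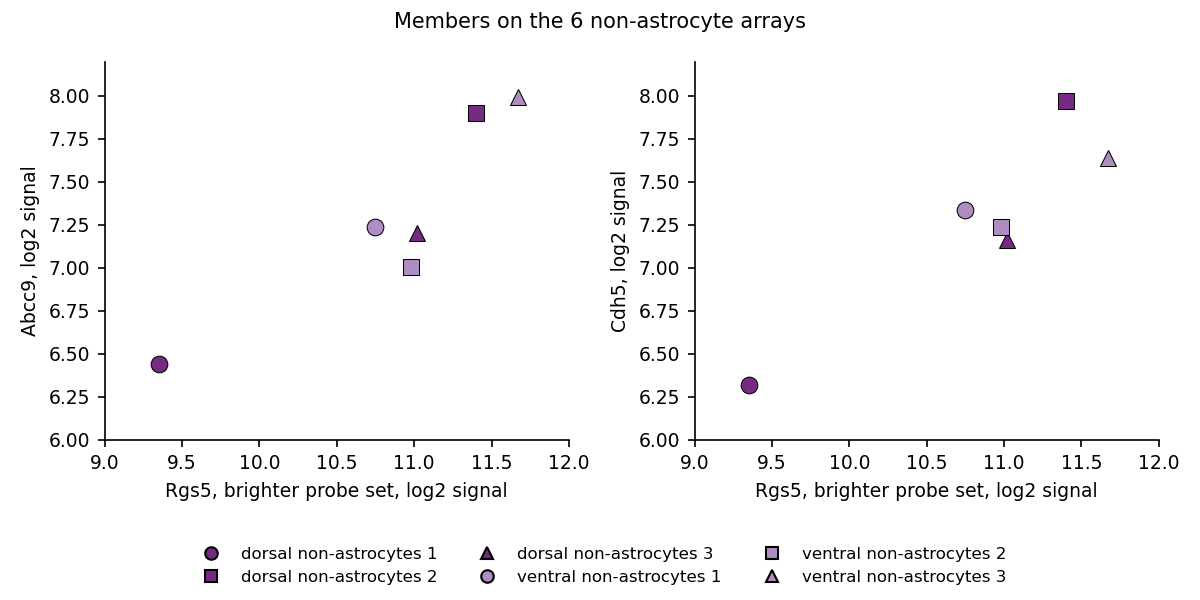
Log2 signal of Abcc9 (left) and Cdh5 (right) against that of the brighter Rgs5 probe set, 1 point for each of the 6 non-astrocyte arrays, its shape giving the replicate number and its shade the region. Dorsal non-astrocytes 1 lies lowest in both panels, and dorsal non-astrocytes 2 and ventral non-astrocytes 3 lie highest.

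Over all 12 arrays, Abcc9 and Cdh5 were each other's nearest gene. Likeness was the root mean square difference between profiles centred on their own mean, over 4575 named genes, and it was 0.163 log2 units for this pair. For Abcc9, the next genes were Flt1 (0.197) and Kdr (0.198), which encode receptors for vascular endothelial growth factor, then Pglyrp1 (0.225), a peptidoglycan recognition protein gene, and Pecam1 (0.230), an adhesion molecule gene of endothelium. For Cdh5, they were Kdr (0.173), Flt1 (0.180), Pglyrp1 (0.197) and Kcnj8 (0.206), the gene of the channel pore that pairs with SUR2.

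Rgs5 was not close to either. Its nearest genes were Klhl4 (0.551 log2 units), the myelin gene Opalin (0.608), the haemoglobin gene Hbb-b1 (0.620), Ly86 (0.628), an immune gene, and Fa2h (0.637), an enzyme gene of myelin lipids. Cdh5 was at 1.15 and Abcc9 at 1.16 from Rgs5, at ranks 383 and 407. The measure counts the size of the sort difference as well as its shape, and the 5 nearest genes of Rgs5 had log2 differences between -3.49 and -2.61.

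Among the genes of the wider endothelial list that carried a name, signal was lower in astrocytes throughout. Names came from the authors' tables, mainly that of this comparison, so list genes without a sort difference would mostly go uncounted. Of its 34 genes 13 were measured under a name, with 14 probe sets, and all 14 were lower in astrocytes, with a median log2 difference of -1.03, where the median of all probe sets tested was -0.01 and that of the named ones -0.39. Of the named probe sets, 51.9% were lower. The furthest were Cd93, a lectin-like receptor gene, at -1.65, Ctla2a at -1.60, the adhesion G protein-coupled receptor gene Adgrl4 at -1.52 and Ptprb, the gene of the endothelial phosphatase VE-PTP that binds VE-cadherin, at -1.41. Kdr fell by 1.00, Pecam1 by 0.96, Flt1 by 0.94 and the tight junction gene Cldn5 by 0.71 on the log2 scale. The list averaged 5.91 to 6.28 across astrocyte arrays and 6.35 to 7.71 across non-astrocyte arrays. Without dorsal non-astrocytes 1 its median was -1.23.

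The pericyte list, to which Rgs5 and Abcc9 belong, was divided. Of its 27 genes 12 were measured under a name, with 13 probe sets, of which 10 were lower and 3 higher in astrocytes (median -0.99, and -1.14 without dorsal non-astrocytes 1), where 51.9% and 47.7% of the named probe sets were. Beside Rgs5, the lower ones furthest down were Vtn, which encodes vitronectin, at -1.76, Mcam, a cell adhesion gene, at -1.58 and Higd1b at -1.42, and Kcnj8 fell by 0.99. The log2 signals of Kcnj8, the pore partner of Abcc9, were 6.65, 6.64 and 6.42 in dorsal astrocytes and 6.98, 6.82 and 6.53 in ventral astrocytes, against 7.10, 8.38 and 7.56 in dorsal non-astrocytes and 7.61, 7.55 and 7.79 in ventral non-astrocytes. The sorts did not overlap, as in 12% of all probe sets tested in this direction, and dorsal non-astrocytes 1 was again the lowest of its sort. The 3 higher ones were Mfge8 at 1.09, the receptor gene Notch3 at 0.76 and its target Heyl at 0.69. Mcam and Cspg4 (-0.71), the gene of the proteoglycan NG2, are also expressed outside pericytes, Cspg4 by oligodendrocyte precursors. In the smooth muscle list, Ppp1r14a (-2.99), Cald1 (-1.44) and Tpm2 (-0.50) were lower and Pln (2.27) was higher, beside the same 51.9% and 47.7%.

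The list of vessel signalling holds ligands and receptors that many cell types express. Of its 36 genes, 21 were measured under a name. Of these, 15 were higher and 6 lower in astrocytes (median 0.66), beside 47.7% and 51.9% of the named probe sets. The highest were the sphingosine phosphate receptor gene S1pr1 at 3.75, the endothelin receptor gene Ednrb at 2.99 and Angpt1, the ligand of the endothelial receptor Tie2, at 2.43. Aplnr, the apelin receptor gene, was higher by 1.66. The lower ones were Tgfbr1 (-1.41), Kdr, Flt1, Cxcl12 (-0.69), Tgfb1 (-0.58) and Tgfbr2 (-0.53).

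Partners and relatives of the 3 genes were found on both sides. Of 11 probe sets of the RGS family, 6 were higher and 5 lower in astrocytes, close to the 47.7% and 51.9% of all named probe sets. The family had Rgs6 at 3.18, Rgs20 at 1.88 and Rgs7 at 1.37 on one side and Rgs16 at -1.35, Rgs10 at -1.17 and Rgs3 at -0.49, beside Rgs5, on the other. In the VE-cadherin complex, Ptprb, Kdr, Cdh5 and Arhgap29 (-0.89) were lower, beside 51.9% of the named probe sets. Vcl (1.61), Cdh2 (0.97) and Ctnna1 (0.75), which serve cadherin junctions in many cell types, were higher, beside 47.7%. Of the 4 genes of the ATP-sensitive channel list, 2 were measured under a name, Kcnj8 and the member Abcc9. Both were lower, as were 51.9% of all named probe sets. Of 29 blood-brain barrier genes, 11 were measured under a name. Of these, 6 were higher, close to the 47.7% of all named probe sets. They were led by the amino acid transporter genes Slc38a3 (3.15) and Slc7a5 (1.20) and the glucose transporter gene Slc2a1 (1.18). A further 4 were lower, Abcb1a (-0.86), Slc7a1 (-0.82), Slc22a8 (-0.79) and Tfrc (-0.54). The remaining one, the thyroid hormone transporter gene Slco1c1, did not pass at 0.88 (limma adjusted p = 0.126). Of 15 endothelial transcription factor genes, 3 were measured under a name. Epas1 was higher (1.73) and Fli1 (-1.11) and Ets1 (-0.83) lower, beside the same 47.7% and 51.9%.

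Lists of other cell types differed between the sorts as well. The microglia and macrophage list averaged 6.31 to 6.89 across astrocyte arrays and 8.28 to 8.996 across non-astrocyte arrays, the oligodendrocyte list 8.31 to 8.95 in astrocytes and 10.63 to 11.18 in non-astrocytes, and the red blood cell list 7.73 to 8.57 in astrocytes and 10.27 to 10.58 in non-astrocytes. The basement membrane list had 4 of 9 probe sets higher and 5 lower in astrocytes (median -0.37), close to the shares of 47.7% and 51.9% among the named probe sets. Of the 24 genes of the fibroblast list, 6 were measured under a name. Of these, 5 were higher and 1 lower in astrocytes (median 0.57), beside the same shares. The part of these cells in the differences of Rgs5, Abcc9 and Cdh5 was not tested.

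The same array was often the lowest in some of the lists of vessel genes. Dorsal non-astrocytes 1 was the lowest of the 6 non-astrocyte arrays in 13 of 14 endothelial probe sets, in 7 of 11 blood-brain barrier probe sets and in 8 of 13 pericyte probe sets, where the share over all probe sets tested was 15.7%. These lists hold the 3 genes themselves, and without them the counts were 12 of 13 endothelial and 5 of 10 pericyte probe sets. It was the lowest in 0 of 15 microglia, 0 of 12 oligodendrocyte, 0 of 10 oligodendrocyte precursor and 0 of 9 basement membrane probe sets, and in 1 of 7 red blood cell ones. Its median deviation from the median of the 6 arrays was -0.85 in the endothelial list and -0.30 in the pericyte list, and 0.00 in the microglia list and over all probe sets. It was also the lowest in 8 of 20 astrocyte, 3 of 7 neuron and 2 of 3 ependymal probe sets. In the further vessel lists it was the lowest in 8 of 21 ligand and receptor and 2 of 3 endothelial transcription factor probe sets. The counts were 2 of 7 in the VE-cadherin complex, which holds Cdh5, 1 of 4 for smooth muscle and 1 of 6 for fibroblasts. Other arrays were low in other lists, and dorsal non-astrocytes 2 was the lowest in 10 of 12 oligodendrocyte probe sets, against 19.7% of all probe sets tested.

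Single genes of these lists show the size of this gap. Adgrl4 had a log2 signal of 4.79 on that array and 6.81 to 7.45 on the other 5, and Ctla2a had 4.98 and 6.82 to 7.79. Slco1c1 had 5.81 on that array and 8.11 to 8.91 on the others. It is not particular to vessel cells here, with a mean of 8.94 in astrocytes and 8.06 in non-astrocytes. Not every pericyte gene was low there, since Mcam had 9.44 against 9.13 to 9.57 on the others, and Art3, a pericyte list gene, had its highest value, 8.01, on that array. The laminin genes Lama4 (8.10) and Lamb1 (8.31) were also highest there. The cause of the low values was not tested.

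**Figure D4:**
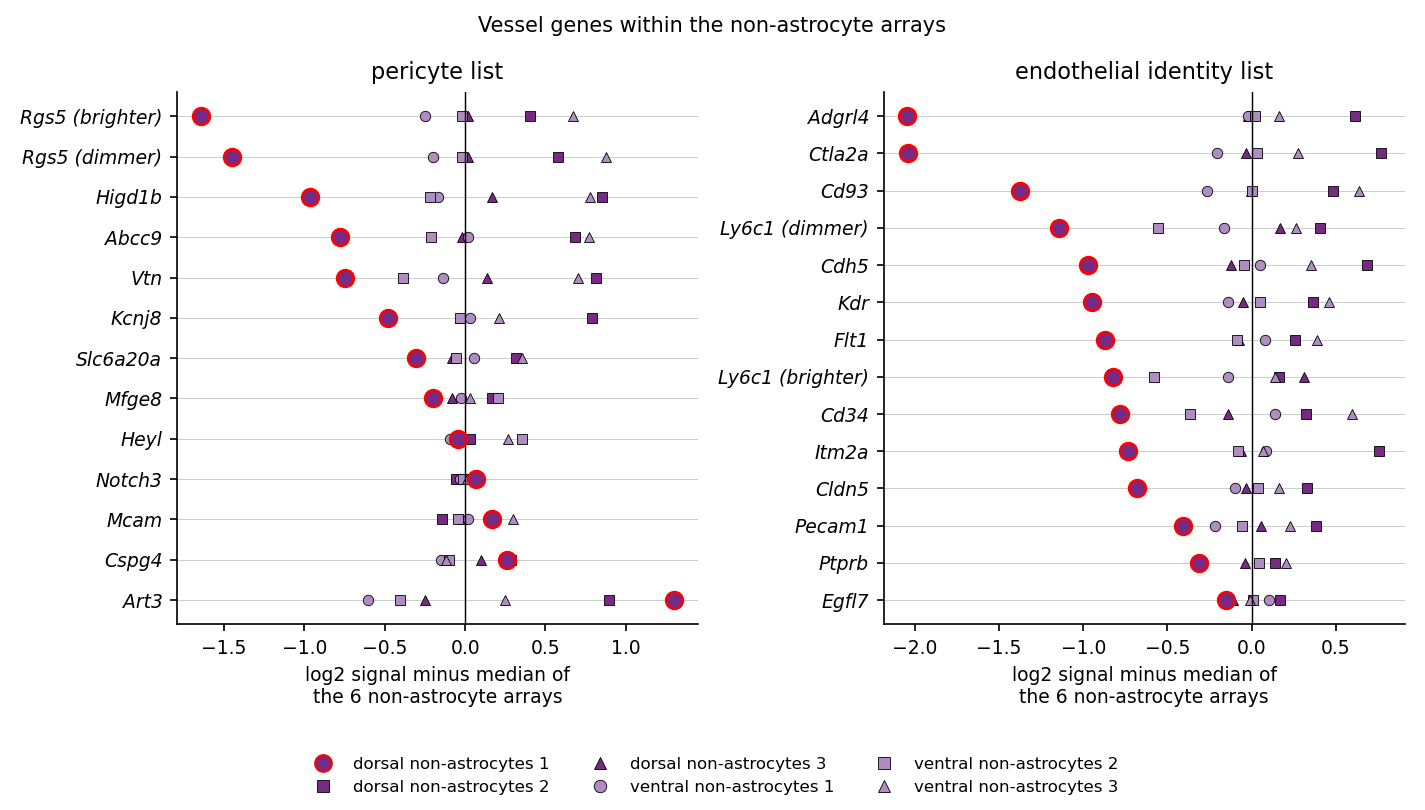
Log2 signal of each probe set of the pericyte list (left) and the endothelial list (right) minus its median over the 6 non-astrocyte arrays (horizontal axis), 1 point per array, with dorsal non-astrocytes 1 ringed in red. The ringed point is the lowest in 13 of 14 endothelial and 8 of 13 pericyte probe sets, and it is the highest for Art3.

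**Figure D5:**
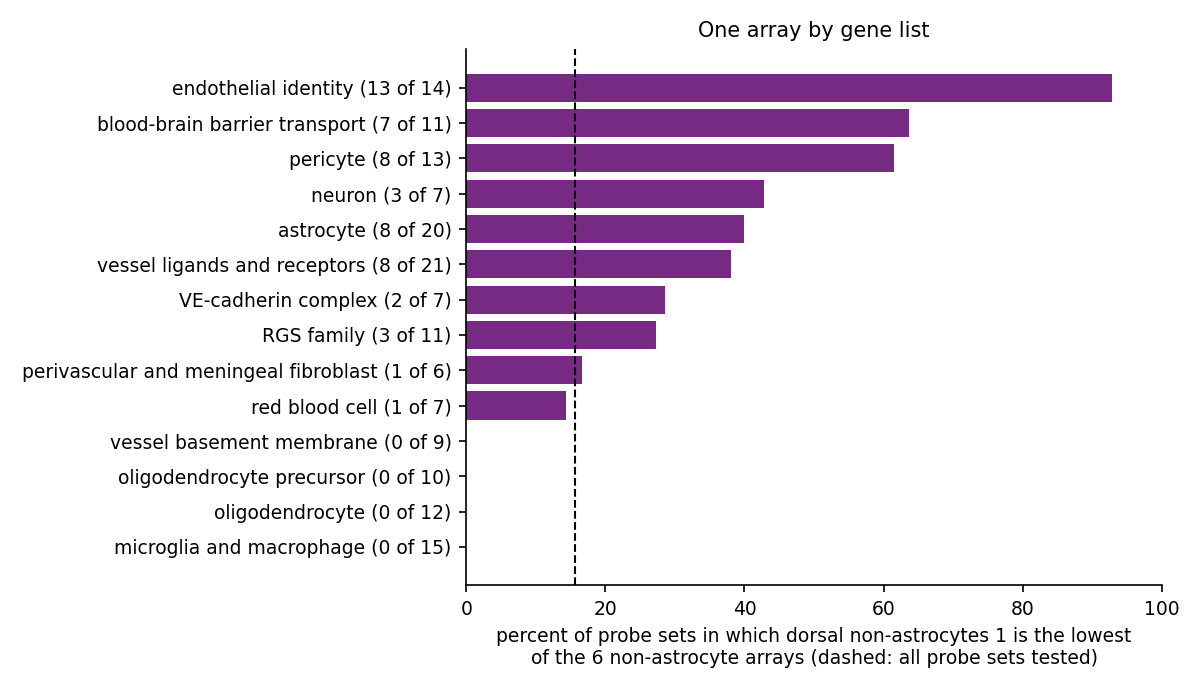
Percent of the probe sets of each list (horizontal axis) in which dorsal non-astrocytes 1 is the lowest of the 6 non-astrocyte arrays, with counts in the row names, for lists of 5 or more probe sets. The dashed line is the 15.7% over all probe sets tested. The endothelial, blood-brain barrier and pericyte lists have the longest bars.

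Few probe sets of any kind were called in the regional comparisons. In dorsal against ventral non-astrocytes, 0 of 14 endothelial and 0 of 13 pericyte probe sets were called, beside 0.0492% of all probe sets tested, with medians of -0.21 and -0.10, and without dorsal non-astrocytes 1 these medians were 0.14 and 0.08. In dorsal against ventral astrocytes, 0 of 14 and 0 of 13 were called, beside 0.341% of all probe sets tested, with medians of -0.14 and 0.02.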

How the data were processed

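The series table deposited by the authors gives one RMA signal for each probe set and array, in log2 units. The submitters' processing notes name oligo, RMA and limma. Versions and order of these tools, like the genome build, were not given in the sources used here. For listed probe sets only, further tables deposited by the authors add a gene name and repeat the log2 values. Beside these, the authors' tables hold a fold change (a linear ratio), a t score, and raw and adjusted p-values. RMA models all arrays together, and differences of dim probe sets such as those of Abcc9 and Cdh5 can come out compressed.

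Of 35556 probe sets, 476 repeats were collapsed and 6613 in a leading unnamed block were left out, leaving 28467. Names came from matching the 12 log2 values to the authors' tables to 6 decimals. All 5158 and 39 listed entries matched, 3 conflicting names were left out, and names were updated through RefSeq GRCm38.p6 (4327 and 34 symbols, 641 and 5 synonyms, 190 and 0 kept as listed). Pdgfrb, Tek, Pdgfb, Rgs4, Kcnj11, Abcc8, Acta2 and Tagln had no probe set under their name, so they were not analysed here.

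Comparisons were contrasts of limma 3.58.1 in R 4.3.3 with 1 mean per group over 12 arrays, 8 residual and 4.6 prior degrees of freedom, two-sided, adjusted by Benjamini-Hochberg over all 28467 probe sets at 0.05. The script was tested on simulated data. Correlations used exact permutation tests, two-sided, in scipy 1.17.1. Other steps ran in Python 3.11.15 with pandas 2.3.3 and numpy 2.4.6, and figures in matplotlib 3.10.9. The members, the 18 gene lists (327 genes, 159 named) and the tests were chosen with earlier results of these data known. Named list genes are all called members of lists with 8 or fewer, otherwise up to 4 furthest in each direction, plus a few vessel genes throughout, and for each member the 5 genes of nearest profile. Genes named for their value on dorsal non-astrocytes 1 were chosen after their values were seen.

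Replicate numbers were checked as pairs by correlating deviations from the group means over all probe sets. For dorsal and ventral non-astrocytes the same-number correlations were 0.147 to 0.209 and the others -0.139 to -0.042, so these numbers were taken as paired. For the other group pairs not every same-number correlation passed 0.1. They were 0.041 to 0.145 for dorsal and ventral astrocytes, 0.086 to 0.124 for the ventral sorts and 0.039 to 0.096 for the dorsal sorts. The correlations of unlike numbers were -0.101 to 0.034, -0.100 to -0.017 and -0.105 to 0.056 in the same order. Pairing in these groups is thus not excluded, and the main contrasts held no replicate block. Alternatives were a replicate block, the arrays compared alone, the leading block included, bright probe sets only, array weights, a variance trend, median centring and leaving out arrays. The number of arrays limits the precision.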

Additional observations from a re-analysis of the deposited data

How the results depend on the processing

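The calls and directions of all 4 probe sets in astrocytes against non-astrocytes held in 22 of 22 alternatives, and with arrays left out the log2 differences ran from -3.45 to -2.94 and -2.96 to -2.46 for Rgs5, -1.33 to -0.88 for Abcc9 and -1.31 to -0.84 for Cdh5. Within the dorsal part Rgs5 stayed called in 23 of 23, while Abcc9 lost its call in 15 of 23 (limma adjusted p between 0.00391 and 0.279) and Cdh5 in 10 of 23 (0.000395 to 0.307). For Abcc9 these included the dorsal arrays compared alone (-0.91, adjusted p = 0.0715), all probe sets tested (-0.91, 0.0819), array weights (-0.91, 0.0794) and median centring (-0.88, 0.0549), and for Cdh5 the arrays alone (-0.93, 0.101), all probe sets tested (-0.93, 0.0622) and array weights (-0.92, 0.0584). Leaving out arrays gave -1.29 to -0.54 for Abcc9, whose call was lost without any single astrocyte array, dorsal non-astrocytes 2 or 3 or ventral non-astrocytes 1, or without replicate 2 or 3, and -1.38 to -0.43 for Cdh5, lost without any single dorsal astrocyte array or dorsal non-astrocytes 2 or 3, or without replicate 2 or 3. Within the ventral part both lost their call only without the 4 arrays of replicate 3 (limma adjusted p = 0.139 and 0.123), over ranges of -1.42 to -0.92 for Abcc9 and -1.26 to -1.05 for Cdh5.

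The regional values and the interaction, called in no alternative for any of the 4, changed sign in some. In dorsal against ventral astrocytes, leaving out arrays gave -0.043 to 0.20 for Abcc9 and -0.061 to 0.083 for Cdh5, and Cdh5 stood at 0.0034 with array weights and 0.012 with median centring. In dorsal against ventral non-astrocytes the ranges were -1.03 to 0.076 and -1.05 to 0.077 for Rgs5, -0.80 to 0.14 for Abcc9 and -0.75 to 0.16 for Cdh5. With the replicate block and without dorsal non-astrocytes 1, chosen after seeing the data, Abcc9 stood at 0.13 and Cdh5 at 0.17. For the interaction the ranges were -0.83 to 0.58 and -0.73 to 0.58 for Rgs5, -0.071 to 0.77 for Abcc9 and -0.17 to 0.82 for Cdh5, and -0.066 and -0.18 for Abcc9 and Cdh5 with both choices together.

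The count of all probe sets called moved in the regional comparisons. For dorsal against ventral astrocytes, 97 became 27 with the arrays alone, 46 with all probe sets and 35 with array weights, and 8 to 101 with arrays left out. For dorsal against ventral non-astrocytes, 14 became 0 with the replicate block, with and without dorsal non-astrocytes 1, 1 with the arrays alone, 0 with all probe sets and 43 with array weights, and 0 to 31 with arrays left out. With limma, 1494 had an unadjusted p under 0.05 there. The interaction had 18, 3 with all probe sets, 1 with both choices together and 1 to 14 with arrays left out, and the dorsal sort comparison 7345, and 4684 to 7590 with arrays left out. The replicate block changed no call of the 4 probe sets (Abcc9 within the dorsal part, limma adjusted p = 0.0498). In astrocytes, r without the 2 farthest arrays was -0.842 for Rgs5 with Abcc9 and -0.476 for Rgs5 with Cdh5. The causes were not tested. The precision is limited by 3 arrays a group, and Abcc9 and Cdh5 lay under the array medians in astrocytes.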
